A study of Rattus norvegicus with 25 samples.

Results

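The let-7 family of microRNAs (miRNAs, small RNAs that silence messenger RNAs) was followed through its guide strands, the 5p arms of let-7a, let-7b, let-7c, let-7d, let-7e, let-7f, let-7g, let-7i and miR-98. These 9 members, listed as rno-let-7a-5p, rno-let-7b-5p, rno-let-7c-5p, rno-let-7d-5p, rno-let-7e-5p, rno-let-7f-5p, rno-let-7g-5p, rno-let-7i-5p and rno-miR-98-5p, were taken by name from the 764 mature rat miRNAs of the count table. The material was small RNA of mitochondrial preparations from red gastrocnemius, an oxidative calf muscle, of male Wistar-Kyoto rats. The 13 trained rats ran on a treadmill 5 days a week for 4 weeks, starting at 5 weeks of age. The 12 sedentary rats were of the same sex, strain and age, were handled in the same way and stood on a treadmill that was switched off. All 25 preparations had been incubated with RNase A, which degrades RNA that membranes do not shield, before the organelles were lysed. No library of whole muscle or of untreated mitochondria was analysed here, so a count places a miRNA in the preparation and not necessarily inside the organelle. A library is named below by its group and the number in its title.

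miRNAs find their targets mainly through the seed, the short stretch next to the 5′ end that pairs with the messenger RNA. Members of the let-7 family share a seed and are made from separate hairpins, some of them in common transcripts and some in introns. The protein LIN28 blocks the maturation of let-7 in stem cells, and the family accumulates as cells differentiate. Known targets include RAS genes, HMGA2 and components of the insulin and PI3K signalling pathway, and in skeletal muscle the family has been tied to glucose handling and growth.

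The mature sequences are shown because the members differ at few bases, which sets how well sequencing can separate them. They are given 5′ to 3′ from RefSeq (assembly GRCr8), with the seed, bases 2 to 8, in capitals.
let-7a-5p: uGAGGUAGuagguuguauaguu
let-7b-5p: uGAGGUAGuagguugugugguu
let-7c-5p: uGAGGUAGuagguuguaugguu
let-7d-5p: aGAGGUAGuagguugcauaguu
let-7e-5p: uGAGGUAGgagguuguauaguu
let-7f-5p: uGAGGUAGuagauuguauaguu
let-7g-5p: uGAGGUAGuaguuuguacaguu
let-7i-5p: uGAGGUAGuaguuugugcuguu
miR-98-5p: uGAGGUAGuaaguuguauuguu

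All 9 were 22 bases long and carried the same seed. Of the 687 rows of the count table that had a RefSeq mature sequence, these 9 were the ones with that seed. The members differed from each other at 8 positions, all outside the seed. With the base of let-7a-5p written first and positions counted from 1 at the 5′ end, let-7c-5p differed from it by A19G, let-7e-5p by U9G and let-7f-5p by G12A. let-7b-5p carried A17G and A19G, let-7d-5p U1A and U16C, let-7g-5p G12U and U18C, and miR-98-5p G11A and A19U. The most distant from let-7a-5p was let-7i-5p, with G12U, A17G, U18C and A19U. Of the 36 pairs of members, 4 differed at 1 base. The sources used here do not say how reads that match several members were assigned, so the split between such close members is uncertain.

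The count table also lists 4 miRNAs named miR-3596, whose sequences are antisense to members. They are printed with the bases that pair with the member's seed in capitals.
miR-3596a: aacuauacaaccuaCUACCUCa
miR-3596b: aacuaugcaaccuaCUACCU
miR-3596c: acuauacaaccucCUACCUCa
miR-3596d: cuauacaaucuaCUACCUCa
The reverse complement of each lies inside a guide, of let-7a-5p, let-7d-5p, let-7e-5p and let-7f-5p in that order. miR-3596a had the same count as let-7a-5p in 25 of 25 libraries, 12233 in all. miR-3596c had 1277 counts and let-7e-5p 1278, equal in 24 libraries. miR-3596d had 42397 counts against 42690 for let-7f-5p, and was lower by at most 3.57% of the let-7f-5p count in any library. These 3 were therefore treated as second listings of the guides and left out of all family sums. miR-3596b stood further from its guide, with 1534 counts against 1777 for let-7d-5p. The gap came mostly from trained 21, with 207 against 362, and sedentary 29, with 107 against 167. In no library did any of the 4 exceed its guide. The sources used here do not say whether counting used strand, and without it the reads of a guide and of its antisense partner cannot be told apart.

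Library totals ranged from 26793 to 202388 counts in trained rats and from 12181 to 186006 in sedentary rats. Sedentary 19, with 12181 counts and 1099 from the family, was the shallowest. Of the 764 miRNAs, 260 had a count and 76 had enough to be tested, among them 8 of the 9 members. miR-98-5p fell below the filter. Of 6 muscle miRNAs used as markers, 5 had counts. Together they took a median of 23.6% of counts in trained and 16.4% in sedentary libraries (ranges 11.0% to 27.1% and 9.15% to 32.5%). Most of these counts were of miR-1-3p (241423) and miR-206-3p (161329). The near-identical rows miR-133a-3p and miR-133b-3p had 3645 and 3632 counts, and miR-499-5p had 412 in 5 libraries. The slow-muscle miR-208b-3p was at 0. The red-cell list rested on miR-486, since miR-451-5p and miR-144-3p, the defining red-cell miRNAs, were at 0. It took 1.01% to 5.27% of counts in trained libraries (median 1.70%) and 1.00% to 4.75% in sedentary ones (median 3.10%). The leukocyte list of 5 reached at most 0.238% of counts in any library, with miR-223-3p, miR-155-5p and miR-142-3p at 0. The endothelial list of 4 reached at most 1.92%, mostly from miR-126a-3p (13019 counts), with miR-126a-5p at 0. The 2 smooth muscle miRNAs took more, 0.805% to 3.41% in trained libraries (median 2.42%) and 0.828% to 5.49% in sedentary ones (median 3.22%). That list rested on miR-143-3p, with 55782 counts in 25 libraries, against 212 in 9 for miR-145-5p. The 3 fibroblast miRNAs took at most 0.870%, mostly from miR-199a-3p (8108 counts), beside 105 of miR-199a-5p and 442 of miR-214-3p. The part of other cells in the results below was not tested.

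Together the 9 members held 218171 of 2094773 counts, or 10.4%. That total includes rows that repeat others, such as miR-3596a. With near-identical rows counted once, the mean share over libraries was 12.7%, against 10.1% with all rows. Rows outside the rule for near-identity stayed in, such as miR-378b (132331 counts) beside miR-378a-3p (136920). Whether those share reads was not tested. In trained libraries the family took from 6.17% in trained 21 to 14.8% in trained 27, with a median of 9.13%. The sedentary values ran from 7.23% in sedentary 12 to 13.1% in sedentary 29, with a median of 9.73%. The groups overlapped over most of this range, and their means were 10.0% ± 2.49 (SD, n = 13) and 10.1% ± 1.91 (SD, n = 12). In a preparation of this kind, fewer cells or organelles of a type and less RNA in each cannot be told apart.

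let-7i-5p, which is made from a hairpin of its own, had the most reads of the family in nearly all libraries. Members have the same length, so counts were compared without length scaling, as shares of the family sum in each library. Such shares are of reads: adapter ligation and PCR can favour some sequences over others, which was not tested, so they need not equal shares of molecules. let-7i-5p took 39.1% ± 8.23 (SD, n = 25), from 20.8% in sedentary 19 to 54.3% in trained 21. It was followed by let-7f-5p at 17.3% ± 5.95, let-7c-5p at 16.6% ± 6.10 and let-7b-5p at 14.0% ± 7.22 (SD, n = 25). let-7g-5p, whose hairpin lies in an intron of Wdr82, held 5.70% ± 2.73, and let-7a-5p, the founding sequence of the family, held 5.60% ± 2.71 (SD, n = 25). These 6 members had counts in all 25 libraries. let-7d-5p held 0.988% ± 1.17, let-7e-5p 0.577% ± 0.766 and miR-98-5p 0.0856% ± 0.278 (SD, n = 25). For these 3 the SD exceeded the mean.

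**Figure D1:**
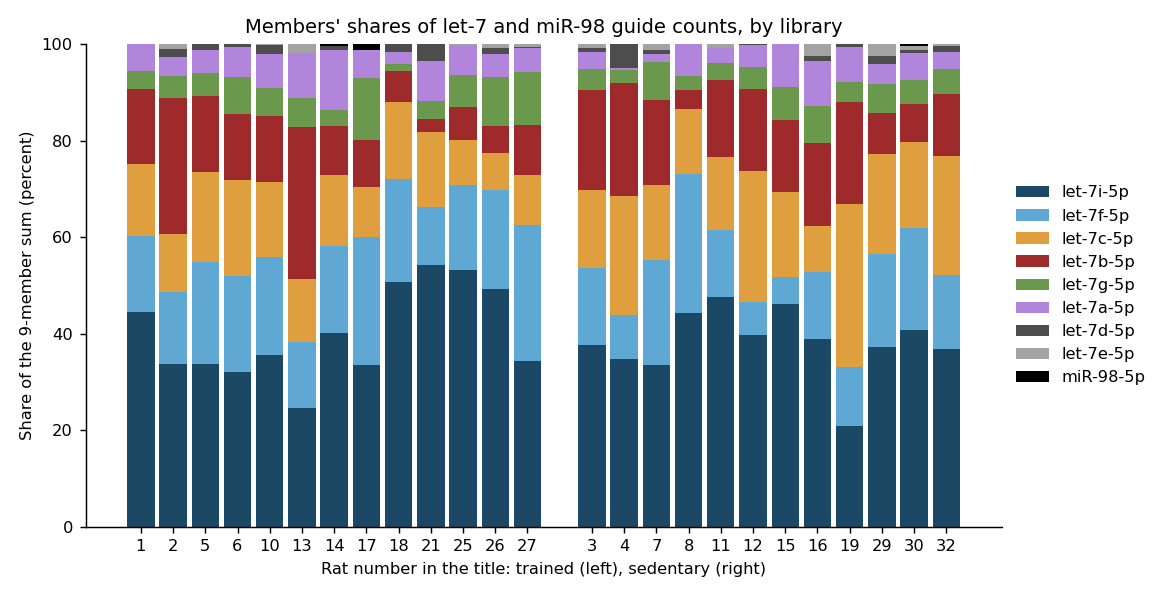
Share of each member in the sum of the 9 guide strands (percent, vertical axis) for each library, with trained rats on the left and sedentary rats on the right, labelled by the number in the title. The dark blue block of let-7i-5p spans 20.8% to 54.3%, and the blocks of let-7f-5p, let-7c-5p and let-7b-5p change order from library to library.

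Among neighbours in the order of the means, let-7i-5p and let-7f-5p were the pair that kept it in every library, with let-7i-5p ahead in 25 of 25 and a mean log2 ratio of 1.24 ± 0.67 (SD, n = 25). For let-7f-5p and let-7c-5p the mean log2 ratio was smaller than its SD, at 0.06 ± 0.93, with let-7f-5p ahead in 15 libraries. The same held for let-7c-5p and let-7b-5p, at 0.36 ± 0.86 with let-7c-5p ahead in 17. It also held for let-7g-5p and let-7a-5p, at 0.11 ± 1.10 with let-7g-5p ahead in 13. These SDs give the spread over libraries and not the error of the mean, and whether the means differ was not tested. The step from let-7b-5p to let-7g-5p, 1.24 ± 1.06, was larger than its SD, with let-7b-5p ahead in 20 libraries. let-7a-5p exceeded let-7d-5p in 24 libraries, by a mean log2 ratio of 3.85 ± 3.40 (SD, n = 25). The exception was sedentary 4, where let-7a-5p had 8 counts and let-7d-5p 151.

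The scarce members had many counts in some libraries and almost none in others. let-7d-5p, which shares a transcript with let-7a and let-7f, had 10 or more counts in 16 libraries (9 trained, 7 sedentary), from 1 to 7 counts in 7 and none in 2. Its lowest value among those 16 was 14 and its highest was 362, in trained 21. let-7e-5p, which is made next to miR-99b and miR-125a, reached 10 counts in 12 libraries (5 trained, 7 sedentary), had 1 to 7 in 10 and none in 3. Its lowest value among those 12 was 35 and its highest 257, in sedentary 29. miR-98-5p, made with let-7f from an intron of Huwe1, was counted in 5 libraries. It had 114 counts in trained 17, 59 in trained 14, 62 in sedentary 30, and 1 each in sedentary 7 and sedentary 8. Without trained 17 its mean share fell from 0.0856% to 0.0350%.

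Members exchanged places from library to library. let-7i-5p held the first place in 23 libraries, with let-7b-5p first in trained 13 and let-7c-5p first in sedentary 19. In trained 13 let-7b-5p reached 31.4% of the family (95% interval 29.9% to 33.0%, exact Clopper-Pearson) against 24.6% for let-7i-5p (23.2% to 26.1%). In sedentary 19 let-7c-5p reached 33.8% (31.1% to 36.7%), and let-7b-5p and let-7i-5p were level with 231 and 229 counts. These intervals cover counting error only. The second place went to let-7f-5p in 12 libraries (9 trained, 3 sedentary), to let-7c-5p in 7 (2 trained, 5 sedentary), to let-7b-5p in 5 (1 trained, 4 sedentary) and to let-7i-5p in 1. let-7g-5p reached the third place in 3 libraries, trained 17, trained 26 and trained 27.

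The exchange was widest in a handful of libraries. In sedentary 8, let-7f-5p had 3457 counts and let-7b-5p 474, while in sedentary 15 let-7b-5p had 789 and let-7f-5p 301. Trained 21 had the highest let-7i-5p share and the lowest let-7b-5p share, 2.65%. Trained 18 had the lowest let-7g-5p share, 1.39%, and trained 17 the highest, 13.0%. In sedentary 4 let-7a-5p was at 0.265% of the family (0.115% to 0.522%), below the 1.78% to 9.33% of the other sedentary libraries and the 2.49% to 12.4% of the trained ones.

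Against let-7c-5p, let-7f-5p was ahead in 11 of 13 trained and in 4 of 12 sedentary libraries. The count ratio of let-7f-5p to let-7c-5p ran from 0.756 in trained 21 to 2.75 in trained 26, with a median of 1.26, and in sedentary libraries from 0.249 in sedentary 12 to 2.15 in sedentary 8, with a median of 0.931. The groups overlapped, with mean log2 ratios of 0.50 ± 0.60 (SD, n = 13) and -0.43 ± 1.00 (SD, n = 12). let-7b-5p was ahead of let-7f-5p in 2 of 13 trained and 7 of 12 sedentary libraries, and let-7g-5p was ahead of let-7b-5p in 5 of 13 trained libraries and in 0 of 12 sedentary ones. These pairs were picked after their values were seen and carry no test. let-7f-5p was ahead of let-7c-5p in 5 of 6 trained and 2 of 6 sedentary libraries up to number 13, and in 6 of 7 and 2 of 6 from number 14 on. The size of the lead in trained libraries was not alike, with a median ratio of 1.10 up to number 13 (mean log2 ratio 0.18 ± 0.16, SD, n = 6) and 1.87 from 14 on (0.78 ± 0.71, SD, n = 7). In sedentary libraries the mean log2 ratios were -0.34 ± 1.17 and -0.51 ± 0.90 (SD, n = 6 each). let-7b-5p was ahead of let-7f-5p in 2 of 6 trained and 4 of 6 sedentary libraries up to number 13, and in 0 of 7 and 3 of 6 from number 14 on. All 5 libraries in which let-7g-5p was ahead of let-7b-5p had numbers of 14 or more.

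**Figure D2:**
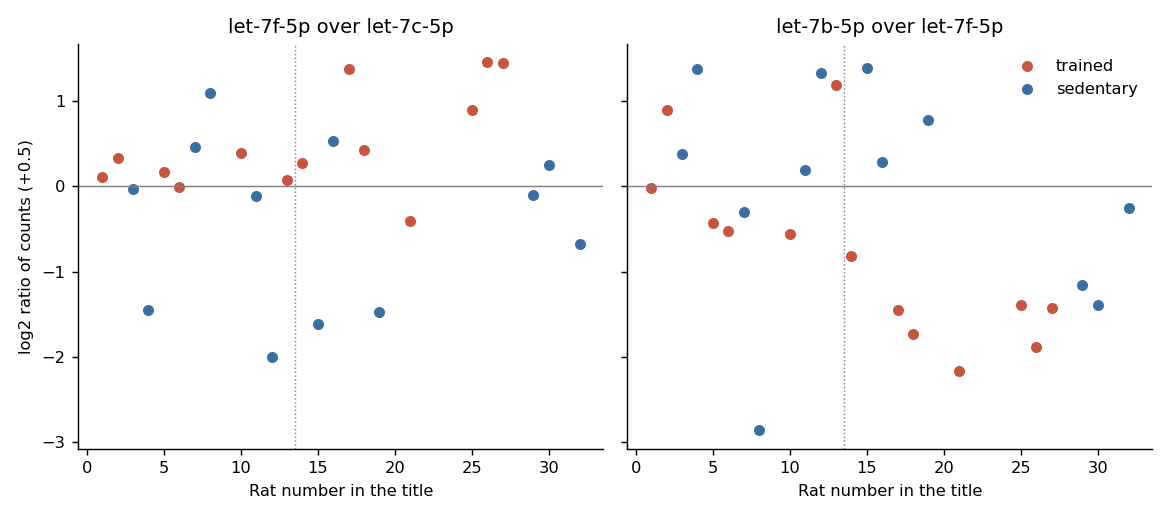
Log2 ratio of counts, with 0.5 added to each, of let-7f-5p over let-7c-5p (left) and let-7b-5p over let-7f-5p (right) against the number in the title, 1 point per library, red for trained and blue for sedentary rats. The dotted line lies between numbers 13 and 14, and points above 0 are libraries in which the member named before "over" had more counts.

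The spread of the ratios between members was set beside counting error as a scale. Separate rats, and PCR without molecular identifiers, add to counting error in any case, so an excess over it is no finding by itself. Over the 15 pairs among the 6 members counted in all libraries, the SD of the log2 ratio over 25 libraries had a median of 1.06, against 0.11 from Poisson counting. It was 6.72 to 16.5 times the counting value in these pairs. The steadiest pair was let-7f-5p with let-7i-5p (SD 0.67), followed by let-7c-5p with let-7i-5p (SD 0.70). The least steady was let-7a-5p with let-7b-5p (SD 1.52), where let-7a-5p ran from 0.0120 times let-7b-5p in sedentary 4 to 3.17 times in trained 21. Without sedentary 4 the median over the 15 pairs was 0.89. With all 25 libraries, the median SD was 1.16 over the 3 pairs that differ at 1 base and 0.93 over the 5 that differ at 2. It was 1.11 over the 3 pairs that differ at 3 bases and 0.88 over the 4 that differ at 4. Among the pairs at 1 base, let-7b-5p with let-7c-5p had an SD of 0.86. The others contain let-7a-5p, which had 8 counts in sedentary 4. How far that library or the abundance of the members sets these medians was not tested. With let-7d-5p, let-7e-5p and miR-98-5p included, the median over all 36 pairs was 2.31. Pairs share members and libraries, so these medians are descriptions.

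**Figure D3:**
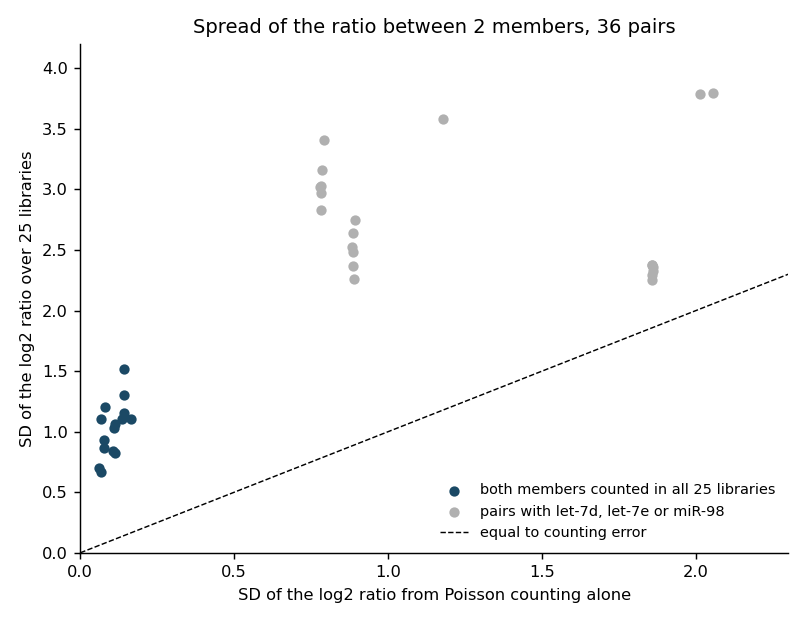
SD over 25 libraries of the log2 ratio between a pair of members (vertical axis) against the SD that Poisson counting alone would give (horizontal axis), for all 36 pairs. All points lie above the dashed line of equality, and the 15 dark points of the members counted in every library sit at SDs of 0.67 to 1.52.

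The passenger strands, the 3p arms that are normally discarded when the guide is loaded, were nearly empty. Of 12 such miRNAs from the same hairpins, 10 had 0 of 2094773 counts, which allows up to 1.43 CPM, the count scaled to the library total, over all libraries. let-7d-3p and let-7c-1-3p were the exceptions, and all passengers together held 534 counts, 0.244% of both arms (0.224% to 0.266%, exact Clopper-Pearson). let-7c-1-3p had 74 of its 79 counts in sedentary 29. let-7d-3p had 455 counts in 12 libraries, 25.6% of the let-7d-5p count. In 3 libraries it exceeded its guide, with 44 against 14 counts in trained 6, 21 against 1 in trained 1 and 62 against 0 in sedentary 11. Both arms of let-7d were counted in 11 libraries and the 5p arm alone in 12, several of which had few counts of it. let-7d-3p had 0 counts beside 362 of let-7d-5p in trained 21, and 80 beside 89 in sedentary 30.

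Several members are made in clusters with each other or with miR-99, miR-100 and miR-125, and the steadiness of these pairs was compared with that against all other tested miRNAs. let-7b-5p and let-7c-5p, neighbours in RefSeq through the second let-7c hairpin, had an SD of the log2 ratio of 0.86, the fourth smallest of the 75 for let-7b-5p. let-7a-5p and let-7f-5p had 1.16, in place 7 of 74 for let-7a-5p. let-7d-5p of the same cluster varied by 3.40 against let-7a-5p, place 51 of 74. let-7c-5p and miR-99a-5p varied by 0.96 (place 16 of 75), but let-7c-5p and miR-125b-5p by 3.02 (place 53). let-7e-5p varied by 2.61 against miR-99b-5p (place 18 of 74) and 2.98 against miR-125a-5p (place 36), its neighbours. The median SD of let-7e-5p to all tested miRNAs was 3.05. let-7a-5p varied by 3.33 against miR-100-5p (place 47 of 74). let-7a, let-7c and let-7f each come from more than 1 hairpin with the same mature sequence, so their counts cannot be assigned to a cluster. Low counts widen the SD of let-7d-5p and let-7e-5p. The partners miR-100-5p (0 CPM in sedentary 16) and miR-125b-5p (23.5 CPM in trained 21) were also low in some libraries.

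Outside the family, and apart from rows near-identical to a member, the miRNA with the steadiest ratio to let-7i-5p over 25 libraries was the muscle-specific miR-1-3p, with an SD of 0.62 against a median of 2.79 over 65 miRNAs. miR-3571, a second listing of miR-1-3p in these data, gave the same value. Low counts widen such an SD, and miR-1-3p was the most abundant row, with 241423 counts. How far abundance sets this order was not tested. miR-1b was closest to let-7c-5p (SD 0.80) and let-7g-5p (SD 0.83), and miR-1-3p and miR-3571 to let-7f-5p (SD 0.84) and let-7a-5p (SD 1.01). let-7b-5p had other neighbours, with miR-320-3p (SD 0.77) and miR-486 (SD 0.83), abundant in red cells and also made in muscle, as its closest. let-7e-5p was closest to miR-27b-3p (SD 1.97), followed by miR-26a-5p (SD 2.17). let-7d-5p was closest to its antisense partner miR-3596b (SD 0.24), followed by miR-99a-5p (SD 2.79). miR-3596b had the same count as let-7d-5p in 14 libraries, so that closeness may reflect the same reads and is no finding.

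The main question of the study was what differed in trained rats. No member passed the two-sided edgeR quasi-likelihood test at a threshold of 0.05, with p adjusted by the Benjamini-Hochberg method over 76 miRNAs, and the background was 0%, with 0 of 76 called. At an unadjusted p under 0.05, 1 of 76 miRNAs (1.32%) and 0 of the 8 tested members were found. DESeq2 called 0 of 260, with 6 at an unadjusted p under 0.05, and limma-voom 0 of 76, with 14. Of the 8 members, 5 had a fold change above 0, against 37 of 76 miRNAs (48.7%), and the median log2 fold change was 0.14 for the members and -0.01 for all miRNAs.

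let-7g-5p was at 1185 to 16167 CPM in trained rats (median 4539) and at 2784 to 7903 CPM in sedentary rats (median 4958). The trained values enclosed the sedentary ones. The fitted log2 fold change, trained minus sedentary, was 0.65 (SE 0.41, edgeR adjusted p = 0.916). CPM is scaled to library totals and the fit used edgeR's TMM scaling, so medians and fold changes need not have the same sign or size. With total counts as the scaling, the median log2 fold change of all miRNAs was -0.29 in place of -0.01. let-7a-5p ran from 2124 to 16295 CPM in trained rats (median 5897) and from 262 to 8942 in sedentary rats (median 4443), with a log2 fold change of 0.62 (SE 0.44, adjusted p = 0.916) that became 0.35 without trained 14. let-7f-5p ran from 7319 to 41692 CPM in trained rats (median 18162) and from 4793 to 36637 in sedentary rats (median 14470), with 0.49 (SE 0.34, adjusted p = 0.916) and 0.78 without sedentary 8. For each of these members the SE was smaller than the fold change and the 95% interval included 0.

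let-7c-5p lay at 6848 to 22337 CPM in trained rats (median 12363) and at 9183 to 30539 CPM in sedentary rats (median 18497). Its log2 fold change was -0.37 (SE 0.29, edgeR adjusted p = 0.916, 95% interval -0.95 to 0.21), and -0.17 without sedentary 29. let-7i-5p lay at 20156 to 63983 CPM in trained rats (median 40467) and at 18800 to 56349 in sedentary rats (median 38053), and the groups overlapped almost entirely. Its log2 fold change was 0.28 (SE 0.30, adjusted p = 0.953), 0.16 without sedentary 30 and 0.46 without sedentary 29. let-7b-5p lay at 1633 to 25695 CPM in trained rats (median 12538) and 5023 to 23094 in sedentary rats (median 13653). Its log2 fold change of 0.0075 (SE 0.31) changed sign with other scalings, to -0.075 with DESeq2 size factors, -0.090 with the upper quartile and -0.18 with total counts. let-7e-5p had medians of 74.3 CPM in trained and 621 CPM in sedentary rats. The trained median was the value of trained 6, which had 2 counts, so the gap between these medians rests on very few reads. Its log2 fold change was -1.12 (SE 1.00, edgeR adjusted p = 0.916, 95% interval -3.11 to 0.88), which became -0.20 without sedentary 29. let-7d-5p was at -0.06 (SE 0.99), and its sign changed to 0.050 with DESeq2 size factors and 0.031 with the upper quartile. The interval of let-7d-5p, -2.03 to 1.92, leaves room for changes of several fold in either direction.

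**Figure D4:**
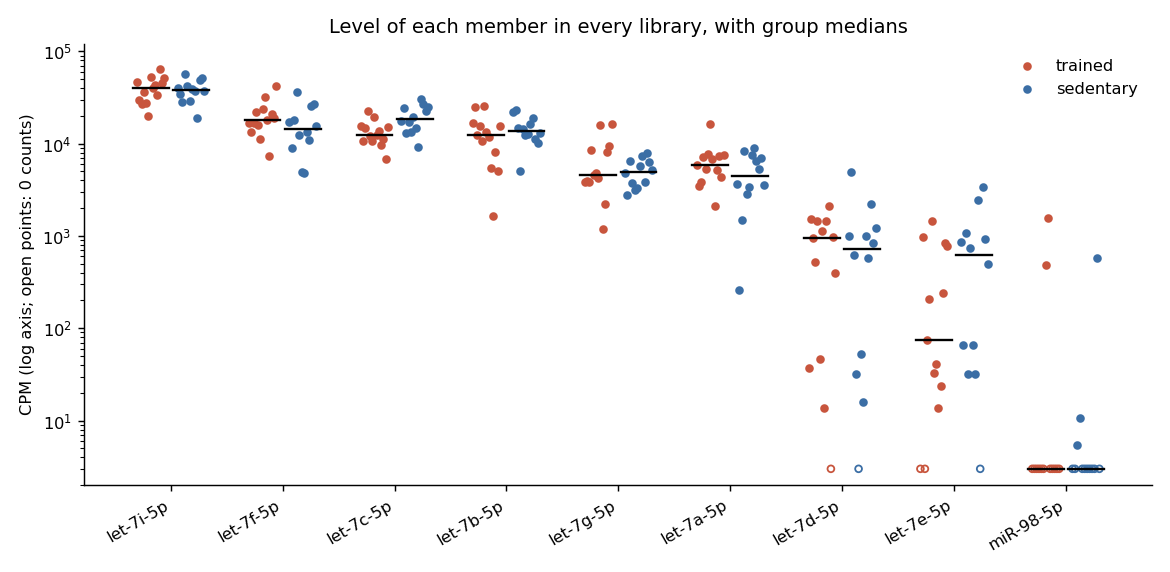
Level of each member in every library, in CPM on a log axis, red for the 13 trained and blue for the 12 sedentary rats, with a bar at each group's median and open points at the foot for libraries with 0 counts. The groups overlap for all 9 members, and the points of let-7d-5p, let-7e-5p and miR-98-5p spread more widely than those of the other members.

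To ask whether training moved the balance within the family, the same test was run with each library scaled to the sum of its 9 members. Again 0 of 76 were called (0%). At an unadjusted p under 0.05 there was 1 of 76 (1.32%), let-7c-5p. The share of let-7c-5p in the family ran from 7.50% to 19.9% in trained rats (median 14.8%) and from 9.58% to 33.8% in sedentary rats (median 17.6%). The upper part of the sedentary range lay above all trained libraries. The log2 fold change was -0.53 (SE 0.23, 95% interval -0.99 to -0.06, edgeR unadjusted p = 0.0287, adjusted p = 0.915), and it ran from -0.59 to -0.43 over leaving out each library in turn. The unadjusted p was above 0.05 without sedentary 19 (0.0733) and without sedentary 12 (0.0561). In title numbers up to 13 the log2 fold change was -0.26, and from 14 on it was -0.79. let-7f-5p took 11.9% to 28.1% in trained rats (median 19.7%) and 5.69% to 28.8% in sedentary rats (median 14.7%), with a log2 fold change of 0.33 (SE 0.25, adjusted p = 0.915). let-7i-5p was at 0.07 (SE 0.18), the narrowest interval of the family, -0.31 to 0.44. let-7a-5p was at 0.38 (SE 0.40), let-7g-5p at 0.31 (SE 0.36), let-7b-5p at -0.21 (SE 0.32), let-7d-5p at -0.03 (SE 0.98) and let-7e-5p at -1.06 (SE 0.97). On this scale 4 of 8 members and 21 of 76 miRNAs (27.6%) lay above 0, and 4 of 8 members and 55 of 76 miRNAs (72.4%) lay below it. The medians were 0.02 for the members and -0.24 for all miRNAs. Scaling to the members' own sum holds their combined level fixed. An even split of the members, and their contrast with all miRNAs, is therefore largely set by the scale and is no finding.

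**Figure D5:**
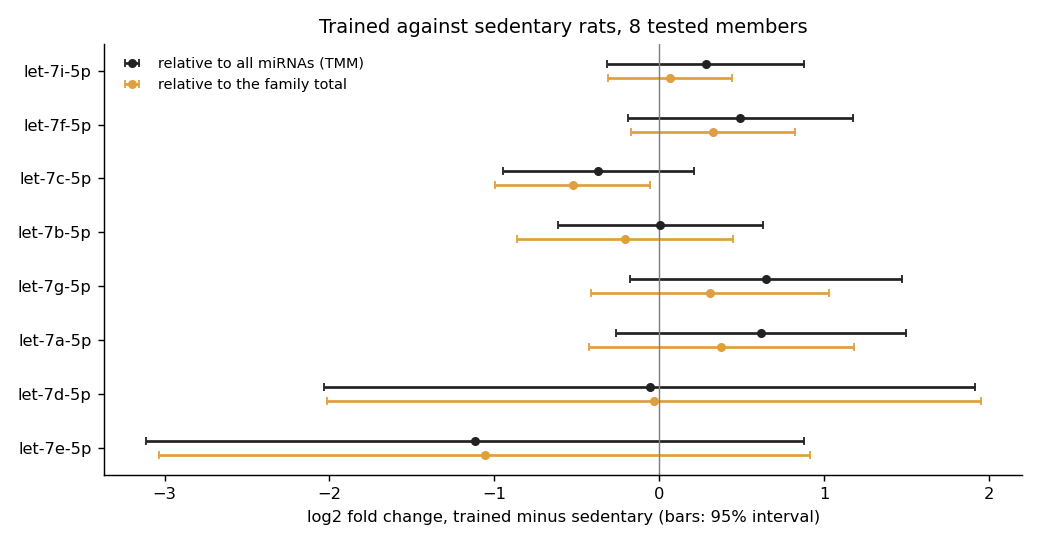
Log2 fold change, trained minus sedentary, of the 8 tested members with 95% intervals, in black relative to all miRNAs and in orange relative to the sum of the 9 members. All black intervals include 0, and the orange interval of let-7c-5p ends at -0.06.

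The cluster partners were in the same position. Relative to all miRNAs, miR-99a-5p was at 0.19 (SE 0.30), miR-99b-5p at -0.19 (SE 0.38), miR-100-5p at 0.65 (SE 0.79), miR-125a-5p at -0.77 (SE 0.65) and miR-125b-5p at -0.32 (SE 0.69), and 0 of these 5 passed the test.

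Trained libraries with title numbers up to 13 were shallower (26793 to 43510 counts) than those numbered 14 or more (72553 to 202388), while sedentary libraries did not split in this way (30527 to 186006 and 12181 to 106661). What the numbers stand for beyond the rat is not given in the labels, and number and depth cannot be told apart in trained rats. let-7b-5p held 19.7% ± 7.91 of the family in trained libraries up to number 13 (SD, n = 6) and 7.38% ± 2.88 in those from 14 on (SD, n = 7), against 16.4% ± 6.69 and 13.7% ± 4.99 in sedentary libraries (SD, n = 6 each). In a fit with the number range as a term, scaled to the family, let-7b-5p was at -0.86 for the higher against the lower numbers (SE 0.30, edgeR unadjusted p = 0.00588, adjusted p = 0.0745), where 20 of 76 miRNAs (26.3%) had an unadjusted p under 0.05 and 1 (1.32%) was called, miR-125a-5p. Relative to all miRNAs, let-7b-5p was at -0.25 (SE 0.30, edgeR adjusted p = 0.676). On that scale let-7g-5p was at 1.01 (SE 0.39), let-7a-5p at 0.88 (SE 0.42) and let-7i-5p at 0.64 (SE 0.29), with edgeR adjusted p of 0.117, 0.232 and 0.210, where 15 of 76 (19.7%) had an unadjusted p under 0.05 and 0 (0%) were called. Scaled to the family, the same members were at 0.40 (SE 0.36), 0.49 (SE 0.40) and 0.16 (SE 0.18). No member passed on either scale.

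The difference between trained and sedentary rats itself was also compared between the number ranges. Relative to all miRNAs, the change of that log2 fold change from the lower to the higher numbers was 1.36 for let-7f-5p (SE 0.63, edgeR interaction test, unadjusted p = 0.0357) and 1.25 for let-7i-5p (SE 0.53, unadjusted p = 0.0215), both with an adjusted p of 0.397. Scaled to the family, it was 0.35 for let-7f-5p (SE 0.49) and 0.51 for let-7i-5p (SE 0.36). Among all 76 miRNAs, 7 (9.21%) had an unadjusted p under 0.05 and 1 (1.32%) was called, miR-150-3p. In separate fits, let-7i-5p was at -0.38 up to number 13 and 0.70 from 14 on, and let-7f-5p at -0.18 and 0.97. Scaled to the family, the change for let-7b-5p was -1.16 (SE 0.55, edgeR interaction test, adjusted p = 0.394), and relative to all miRNAs -0.28 (SE 0.61). On the family scale 9 of 76 (11.8%) had an unadjusted p under 0.05 and 1 (1.32%) was called, again miR-150-3p. No member passed in either fit.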

How the data were processed

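The authors deposited raw counts of reads for each mature miRNA, in which empty cells were taken as 0. A second deposited table holds a normalized signal: within a library, all raw counts are divided by the same size factor. DESeq2 1.36 and fastp 0.20.0 appear in the submitters' processing notes. The sources used here do not name the aligner, counter, strand setting, genome build or handling of reads with several matches, and no coordinates are printed. Per the labels' protocols, mitochondria from about 100 mg of muscle were digested for 1 h at 37 °C with 312 µg of RNase A, and libraries were made with 20 PCR cycles. No molecular identifiers are named, so intervals and limits for 0 (3 counts of the total) cover counting error only.

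Groups came from the sample labels. Totals were 12181 to 202388, and within-group pairs of libraries differed beyond sampling noise (chi-square at least 17.7 per degree of freedom in 144 pairs). Differential abundance was tested with edgeR 4.0.16 (R 4.3.3, quasi-likelihood, TMM, filterByExpr with minimum count 10 and minimum total 15, no covariates), and again with library sizes set to the sum of the 9 members. The threshold was an adjusted p of 0.05. The scripts were tested on simulated data. Log2 ratios used a pseudocount of 0.5. Shares, ratios, orders and arm counts are descriptions without a test. Rows were near-identical if their counts stayed within 10% of each other wherever they summed to 10 or more.

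Alternatives were DESeq2 1.42.0, limma 3.58.1 (voom, and trend with a pseudocount of 0.5 or 1 on the signal), other scalings and filters, total count as covariate, near-identical rows counted once, leaving out the most abundant row or each library, and title numbers up to 13 and from 14 on apart. The fits with the number range as a term or interaction were added after seeing the data. miRNAs were named by rule: the members, miR-3596, the 3p arms, 5 cluster partners and the 2 rows with the steadiest ratio to each tested member. The called miR-125a-5p and miR-150-3p and the pairs and libraries singled out were chosen after their values were seen. The members, lists and the number boundary were chosen with earlier results of these data known.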

Additional observations from a re-analysis of the deposited data

How the results depend on the processing

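The number of members past the threshold was 0 in all 16 other settings of the fit to all miRNAs, in all 13 of the fit scaled to the family, and when each of the 25 libraries was left out. Over all miRNAs the calls moved from 0 of 76 to 66 of 260 without the filter on low counts, and to 63 of 260 scaled to the family. In these unfiltered fits 0 of 9 members were called. With limma-voom scaled to the family, 1 of 76 was called. Of 630 member fold changes under other settings, 580 had the sign of the main value and 50 reversed, with a lowest adjusted p of 0.806 among the reversed and of 0.169 for any member (let-7a-5p, limma-voom). let-7b-5p was at -0.075 with DESeq2 size factors, -0.074 with DESeq2, -0.18 with limma-trend at both pseudocounts, -0.11 with limma-voom, -0.16 in numbers 14 to 32, -0.18 with total counts, -0.090 with the upper quartile, and -0.15 to 0.16 over leaving out each library. let-7d-5p was at 0.077 with a filter of 10 counts in 12 libraries, 0.050 with DESeq2 size factors and with DESeq2, 0.16 with limma-trend at both pseudocounts, 0.19 with limma-voom, 0.22 without the filter, 0.28 in numbers 14 to 32, 0.031 with the upper quartile, 0.011 without the most abundant row, and -0.44 to 0.45 over leaving out each library. In numbers 1 to 13, let-7f-5p was at -0.18 and let-7i-5p at -0.38. Scaled to the family, let-7b-5p was at 0.27 and let-7i-5p at -0.22 in numbers 1 to 13, and let-7d-5p at 0.075 and 0.072 with limma-trend, 0.067 with total count as covariate, 0.27 in numbers 14 to 32, and -0.38 to 0.62 over leaving out each library. let-7c-5p ran from -0.79 to -0.26 scaled to the family and from -0.54 to -0.19 relative to all miRNAs over the other settings. let-7e-5p was at -0.20 without sedentary 29 and at -1.56 without trained 13, and had too few counts to be tested in numbers 1 to 13. The median log2 fold change of all miRNAs shifted from -0.01 to -0.16 with DESeq2 size factors and -0.29 with total counts, where the median of the members was -0.07. The family's share of all counts, 10.1% as a mean over libraries, was 12.7% with near-identical rows counted once, 13.0% without the most abundant row, and 9.85% to 10.2% over leaving out each library. The median SD of the log2 ratio between members was 1.40 over all pairs and 0.84 over the 6 fully counted members in numbers 1 to 13, and 1.97 to 2.36 and 0.89 to 1.08 over leaving out each library. The cause of these shifts was not tested. No paired analysis was made because the labels give no pairing, litter or batch. Depth limits let-7d-5p, let-7e-5p and miR-98-5p, for which a library with 0 counts allows up to 3 counts of its total.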
